A study of Mus musculus with 7 samples.

Results

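The clustered protocadherin locus is a stretch of mouse chromosome 18 that carries the alpha, beta and gamma clusters of protocadherin genes. It was described here as 912 adjoining windows of 1 kb, taken by position alone (build mm10, from the window that holds the first base of Pcdha1 to the one that holds the last base of the gamma cluster), out of 2460660 autosomal windows of that size. The locus holds 58 annotated clustered protocadherin genes (RefSeq, GRCm38.p6, the assembly that mm10 names), 14 in the alpha cluster, 22 in the beta cluster and 22 in the gamma cluster. The alpha genes span positions 36930285 to 37188897, the beta genes 37264998 to 37521419 and the gamma genes 37661775 to 37841873. The study asked whether experience leaves a lasting mark on chromatin, by chromatin immunoprecipitation and sequencing (ChIP-seq) of histone H3 trimethylated on lysine 9 (H3K9me3) in hippocampus. All mice were wild-type C57BL/6 of 3 months. The home cage group (1 library) stayed in standard housing, and the enriched cage group (2 libraries) spent 24 h in a larger cage with toys and was then returned to the home cage for 1 week. The labels do not say how many mice gave each library or whether the enriched libraries came from separate animals, so their spread may be technical.

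Clustered protocadherins are cell-surface adhesion molecules of the cadherin superfamily. In the alpha and gamma clusters each variable first exon has its own promoter and is spliced to constant exons shared by the whole cluster, while beta genes consist of 1 coding exon each. Neurons switch on a few of these promoters in apparently random combinations, which gives each cell a surface identity used in self-avoidance of its branches. The C-type genes, which lie at the ends of the alpha and gamma clusters, are expressed more uniformly. H3K9me3 is a mark of silenced chromatin that is bound by HP1 proteins. In neurons the methyltransferase SETDB1 is known to act on this locus.

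The files hold fragment coverage, and 6188698 (home cage), 13017447 (enriched 1) and 8060241 (enriched 2) fragments were recovered from it. Levels are given as the mean coverage of a region divided by the library's median over autosomal 10 kb windows, so that 1 is the typical level of the genome. Values are listed in the order home cage, enriched 1 and enriched 2. No input library was used here, and how reads that map to several places were treated is not given in the sources used here. The variable exons of a cluster resemble each other, so values of single genes are uncertain to that extent. In 33 of the 912 windows the coverage was 0 in all 3 libraries. Hippocampal tissue is a mixture, so a mark on more cells and more of the mark per cell cannot be told apart. The tissue label could not be checked by expression, since ChIP libraries carry no RNA. As a measure of the signal's floor, 8 housekeeping genes had mean levels of 0.429, 0.638 and 0.623. The 9 neuronal genes lay near the typical level, with means of 0.976, 1.12 and 1.12. The highest of these 9, Slc17a7, had levels of 1.45, 2.44 and 2.10.

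The whole locus stood above the genome's typical level in every library. Its mean level was 3.23 (95% exact Poisson interval 3.15 to 3.30, 6767 fragments) in the home cage library, 3.52 (3.46 to 3.57, 15351 fragments) in enriched 1 and 2.56 (2.50 to 2.62, 7255 fragments) in enriched 2. These intervals cover counting error only. The mean of the 3 libraries was 3.10 ± 0.491 (SD, n = 3). The home cage value lay between the enriched values. When the autosomes were cut into 2695 stretches as long as the locus, 2, 1 and 2 of them had a mean at or above it in the 3 libraries.

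Of the 91 windows of 10 kb in the locus, 62, 63 and 57 reached 2 times the median, against 4.37%, 4.32% and 1.88% of all autosomal windows. The most enriched 1% of autosomal windows held 50, 52 and 51 of the 91. The locus therefore supplied 2.03%, 2.11% and 2.06% of that top 1%.

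**Figure D1:**
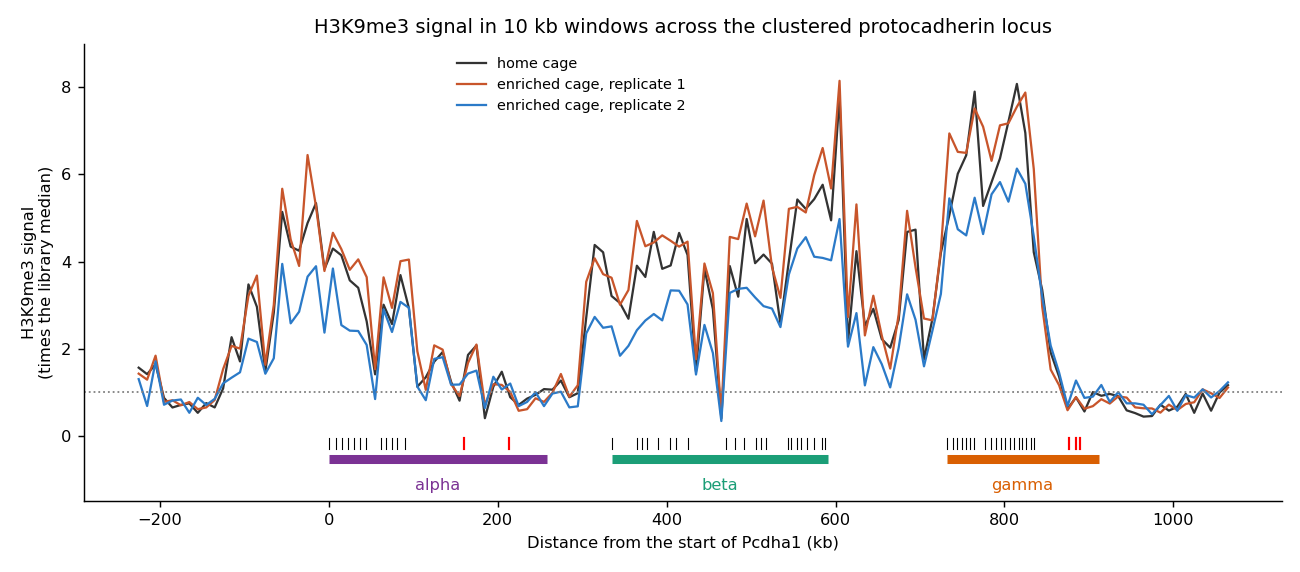
H3K9me3 signal in 10 kb windows (vertical axis, times the library median) against distance from the start of Pcdha1 (horizontal axis, kb), with 1 line per library, the level of 1 dotted, and the clusters and gene starts (C-type in red) marked below. The 3 lines lie mostly above 2 over the first genes of alpha, over beta and over most of gamma, with dips such as the lowest window, inside beta (0.394, 0.480 and 0.334), and lie near 1 at the end of alpha and of gamma.

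The signal was uneven between the clusters, with the gamma cluster highest and the alpha cluster lowest. The alpha cluster had levels of 1.97, 2.17 and 1.68 (mean 1.94 ± 0.248, SD, n = 3). The beta cluster had levels of 3.82, 4.30 and 2.92 (mean 3.68 ± 0.701, SD, n = 3). The gamma cluster had levels of 4.35, 4.64 and 3.77 (mean 4.25 ± 0.440, SD, n = 3). Each library gave the same order, although the ranges of beta and gamma over libraries overlap.

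Within libraries, beta exceeded alpha by 0.96, 0.98 and 0.80 on the log2 scale, and gamma exceeded alpha by 1.15, 1.09 and 1.17. Gamma exceeded beta by 0.19, 0.11 and 0.37, the smallest of these differences and the one most variable in proportion to its size. All 3 libraries had the same sign in each comparison. The exact 2-sided sign-flip permutation p was 0.25 for each, the smallest that 3 libraries allow, and 0.25 after Benjamini-Hochberg adjustment over 7 such comparisons.

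The stretches between clusters also carried the mark. The alpha to beta gap had levels of 2.30, 2.27 and 1.56, and the beta to gamma gap 3.52, 3.80 and 2.51. The first gap was split in its middle. Its 10 kb window at 37220001 had levels of 0.973, 1.16 and 0.671, and the next, at 37230001, 2.71, 3.53 and 2.35. The second gap held 2 genes that are not protocadherins. Slc25a2, which encodes a mitochondrial ornithine carrier, had gene-body levels of 5.59, 10.4 and 4.72. Taf7, which encodes a subunit of the general transcription factor TFIID, had levels of 3.21, 3.53 and 3.53.

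**Figure D2:**
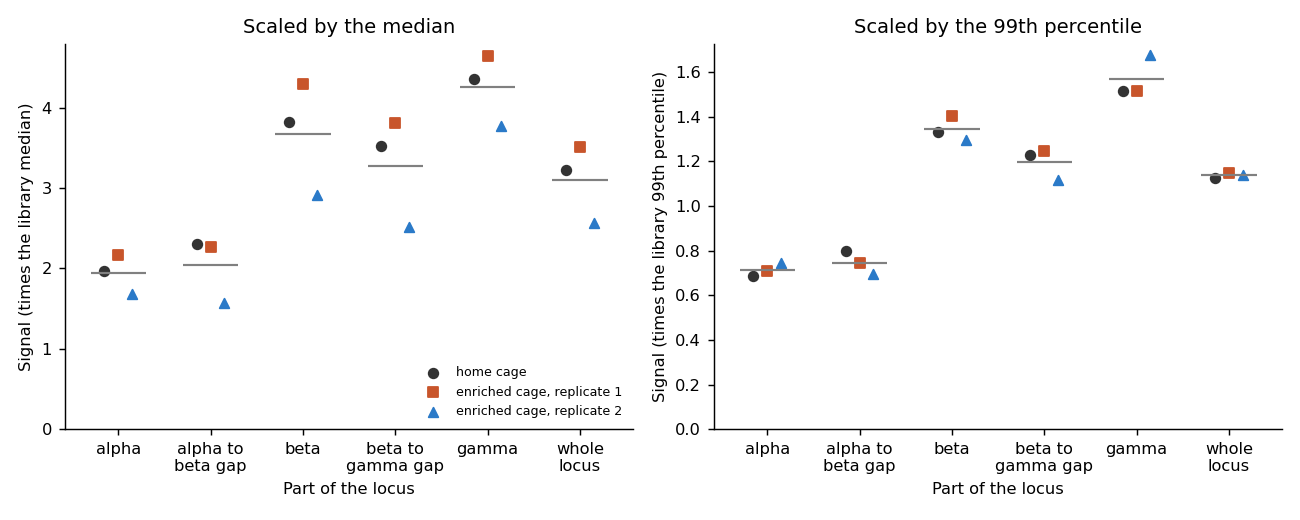
H3K9me3 level of each cluster, each gap and the whole locus (horizontal axis), with 1 point per library and the mean of the 3 as a grey line, as times the library median (left) and as a fraction of the library's 99th percentile of 10 kb windows (right). Alpha is the lowest cluster and gamma the highest on both scales, and the whole-locus points, spread from 2.56 to 3.52 on the left, lie between 1.12 and 1.15 on the right.

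The libraries differed in how far their enriched windows rose above their median. The 99th percentile of autosomal 10 kb windows was 2.87, 3.06 and 2.25 times the median, in the same order of libraries as the locus. Expressed as a fraction of that percentile, the locus had levels of 1.12, 1.15 and 1.14 (mean 1.14 ± 0.0134, SD, n = 3). The coefficient of variation between libraries was 1.18% on this scale and 15.8% on the median scale. It was also lower on this scale for alpha (4.35% against 12.8%), beta (4.16% against 19.0%) and gamma (5.90% against 10.3%). Weakly marked stretches went the other way. From Pcdhgc3 to the end of gamma it was 36.4% on this scale against 19.1% on the median scale. In the 130 kb after the locus it was 23.1% against 6.59%. The clusters kept their order on it, with alpha at 0.684, 0.711 and 0.746, beta at 1.33, 1.40 and 1.30, and gamma at 1.51, 1.52 and 1.68.

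The alpha cluster had its signal at the variable genes near its start and little beyond them. The stretches named in this and the next 2 paragraphs were chosen after their values were seen, and are given without a test. From Pcdha1 to the first 3 kb of Pcdha12, the level was 3.19, 3.65 and 2.55. The stretch from there to Pcdhac1 had levels of 1.5, 1.76 and 1.43. From Pcdhac1, the first C-type gene, to the end of the cluster, where the constant exons lie, the level was 1.13, 1.07 and 1.04. The mean of the alpha cluster thus averages a marked array of 93 windows with 67 and 99 windows of lower level after it. In the array and the stretches after it, 5, 8 and 1 of these windows were at 0 in all 3 libraries.

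The gamma cluster had the same arrangement at a higher level. Its array from Pcdhga1 to the first 3 kb of Pcdhga12 had levels of 6.38, 6.98 and 5.32. The stretch up to Pcdhgc3 had levels of 1.95, 1.7 and 1.96. From Pcdhgc3 to the end of the cluster the level was 0.802, 0.705 and 1.02, on 66, 122 and 114 fragments, below or near the typical level of the genome. The decline took about 4 windows of 10 kb, with means of the 3 libraries of 4.97 (at 37760001), 3.17, 1.83 and 1.32, before 0.625 at 37800001.

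The beta cluster, which has no C-type gene, carried signal to its end and beyond. Its stretch from Pcdhb1 to Pcdhb9 had levels of 3.28, 3.66 and 2.35, and the stretch from Pcdhb9 to the last base 4.44, 5.02 and 3.56. The former includes 9 windows of 1 kb at 0 in all 3 libraries and the latter 0, which lowers the former's mean. Outside the locus the 2 flanks differed. The 130 kb from the end of Zmat2 to the start of the locus had levels of 3.35, 3.59 and 2.37, while the 130 kb before it had levels of 0.920, 0.890 and 0.920. The 130 kb after the locus had levels of 0.701, 0.738 and 0.798. The marked domain thus began upstream of Pcdha1, and Zmat2, a zinc finger gene just outside it, had gene-body levels of 0.985, 0.729 and 0.728. On the other side Diaph1, which encodes an actin-nucleating formin, had levels of 0.657, 0.708 and 0.752.

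At the level of single genes, the first 3 kb after each annotated start, about the length of a variable exon, separated C-type genes from the rest. Every one of the 53 genes that are not C-type reached 2 times the median in all 3 libraries, and none of the 5 C-type genes did. Across the 30572 autosomal gene starts with a mean level of at least 0.25, 3.77% reached it. The median over those 30572 starts was 0.945 (mean of 3 libraries), against 3.76 for 12 alpha genes, 4.47 for 22 beta genes, 7.17 for 12 gamma A genes and 8.01 for 7 gamma B genes. The gamma B genes include the annotated pseudogene Pcdhgb8. The 53 genes share the locus and are not independent of each other.

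**Figure D3:**
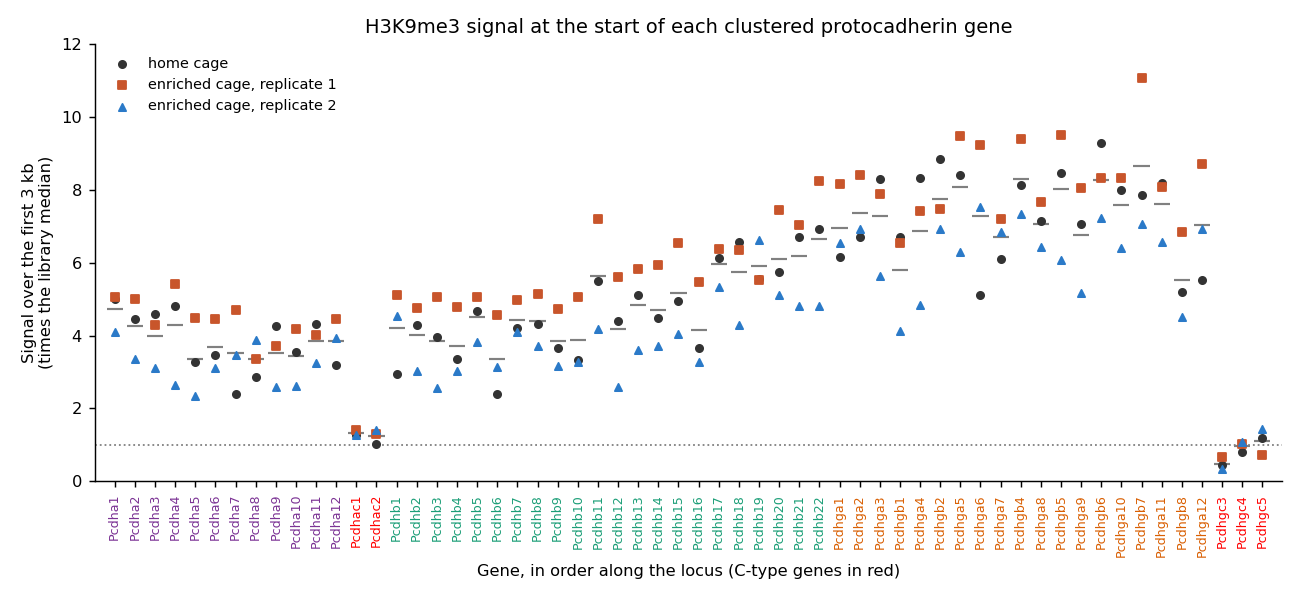
H3K9me3 signal over the first 3 kb of each of the 58 genes (vertical axis, times the library median) in their order along the locus (horizontal axis), with 1 point per library and the mean of the 3 as a grey line. The C-type genes (red names) lie at or under 1.44, and all other genes lie at or above 2.33 in each library.

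Among the alpha genes the highest starts were at the beginning of the cluster. Pcdha1 had levels of 5.01, 5.06 and 4.09 on 35, 73 and 38 fragments. Pcdha4 had levels of 4.82, 5.40 and 2.65, and Pcdha2 of 4.45, 4.99 and 3.36. Their ranges over libraries overlap, so they are not ordered beyond their spread. By the mean of the 3 libraries the lowest alpha gene that is not C-type was Pcdha8, at 2.86, 3.35 and 3.86. Its mean (3.36) did not differ from that of Pcdha5 (3.36) beyond their spread, and the lowest gene was another in the home cage (Pcdha7, 2.39) and in enriched 2 (Pcdha5, 2.33). Each of these genes lay above both alpha C-type genes in every library.

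Pcdhac1 had levels of 1.28, 1.41 and 1.28 on 9, 20 and 12 fragments. Pcdhac2, which serotonergic neurons need for the spacing of their axons, had levels of 1.02, 1.29 and 1.41 on 7, 19 and 13 fragments. The mean of the alpha C-type genes was 1.15, 1.35 and 1.34, against 3.85, 4.42 and 3.20 for the other 12 genes, a ratio of 3.35, 3.28 and 2.38. The exact sign-flip p was 0.25, the smallest possible, and 0.25 adjusted over the 7 comparisons.

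Among the beta genes the highest starts were those at the far end of the cluster. Pcdhb22 had levels of 6.93, 8.23 and 4.80, Pcdhb21 of 6.70, 7.04 and 4.82, and Pcdhb20 of 5.74, 7.44 and 5.10. The lowest were Pcdhb6 at 2.40, 4.55 and 3.12, Pcdhb4 at 3.35, 4.77 and 3.03, and Pcdhb9 at 3.66, 4.73 and 3.15. The 3 highest lay above the 3 lowest in each library, but they were ranked by the mean of these same libraries.

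Gamma starts were the highest of the locus. The 17 highest of the 58 starts by the mean of the 3 libraries were all gamma genes. Pcdhgb7 had levels of 7.85, 11.1 and 7.07 on 54, 159 and 66 fragments, Pcdhgb4 of 8.13, 9.40 and 7.34, and Pcdhgb6 of 9.29, 8.31 and 7.23. Their order differed between libraries. The lowest that are not C-type were Pcdhgb8, at 5.20, 6.83 and 4.51, and Pcdhgb1, at 6.69, 6.54 and 4.13.

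The 3 gamma C-type genes were the lowest of the cluster. Pcdhgc3, which is known to promote the branching of dendrites, had levels of 0.435, 0.656 and 0.344 on 3, 9 and 3 fragments. Pcdhgc4, which is needed for the survival of interneurons, had levels of 0.803, 1.03 and 1.07 on 6, 15 and 10 fragments. Pcdhgc5 had levels of 1.18, 0.713 and 1.44 on 8, 10 and 13 fragments. At such counts the 3 genes cannot be ordered. Their mean was 0.807, 0.800 and 0.953, against 7.34, 8.30 and 6.28 for the other 19 gamma genes, a ratio of 9.10, 10.4 and 6.59. The exact sign-flip p was again 0.25, raw and adjusted.

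As a mean over genes, the signal was higher in the 2500 bases after a start than in the stretches just before and just after them. The stretches compared were chosen after the profile was seen, and C-type genes were left out. In alpha the means of the 3 libraries were 2.50 from 2000 to 250 bases before the start, 4.06 in the 2500 bases after it and 2.83 in the next 2500. In beta they were 3.54, 5.02 and 3.71, and in gamma 4.98, 7.59 and 5.36. In each library and cluster the middle of the 3 stretches was the highest. In home cage gamma, for example, the values were 5.03, 7.55 and 5.69. Further upstream the signal was high again. The mean of the 3 libraries was 7.46 in gamma and 5.13 in beta in the 250 bases from 4250 before the start. In alpha it was 4.19 in the 250 bases from 3250 before the start. Many starts lie close together, for example Pcdhgb7 at 37751619 and Pcdhga11 at 37755773. Stretches before and after a start can therefore overlap the first bases of a neighbouring gene. The profile does not separate the 2 genes, so the upstream values are not a trait of single starts.

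Gene by gene, 38 of the 53 starts that are not C-type exceeded their own 2 kb upstream in all 3 libraries, as did 20.2% of 30572 autosomal starts. They were 7 of 12 in alpha, 17 of 22 in beta and 14 of 19 in gamma. The 14 included all 7 gamma B genes. None of the 5 C-type starts did so. The reverse, a start below its upstream 2 kb in all 3 libraries, was found at Pcdhb6 and Pcdhb10 among the 58, and at 16.3% of the 30572 autosomal starts. Those autosomal starts had a median level of 0.945, so most rest on fewer fragments, and the shares are not compared at like depth. Pcdhb6 had upstream levels of 5.08, 5.60 and 5.09.

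**Figure D4:**
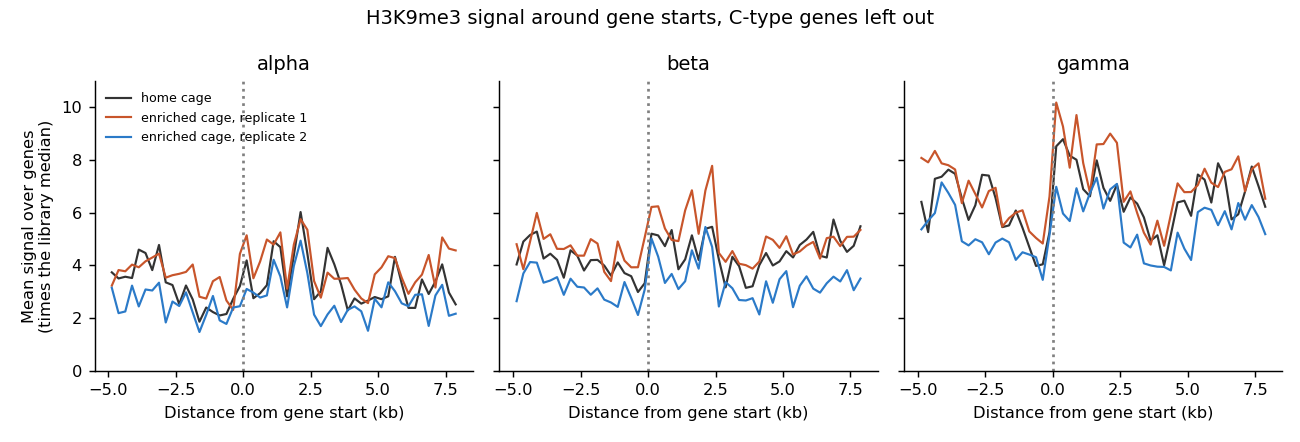
Mean H3K9me3 signal over the genes of each cluster (vertical axis, times the library median) against distance from the gene start (horizontal axis, kb), in steps of 250 bases, with 1 line per library and C-type genes left out. Each alpha and gamma line and both enriched beta lines peak in the first 2500 bases after the start, while the home cage beta line peaks further on, at 5.74 in the step that starts 6750 bases after the start, against at most 5.47 in the first 2500.

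The highest 10 kb window of the locus started at 37740001, held the starts of Pcdhgb6 and Pcdhga10 and had levels of 8.08, 7.56 and 6.14. The windows at 37690001 (7.90, 7.52 and 5.47), 37750001 (6.95, 7.88 and 5.79) and 37730001 (7.22, 7.18 and 5.38) were also among the top 5 and hold gamma starts. The second highest, at 37530001, holds no clustered protocadherin start. It lies after Pcdhb22, between the beta and gamma clusters, and had levels of 7.81, 8.15 and 4.98 on 180, 390 and 155 fragments.

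The lowest window, at 37390001, lies inside the beta cluster just before Pcdhb9. It had levels of 0.394, 0.480 and 0.334 on 9, 23 and 10 fragments, and 3 of its 1 kb windows had no coverage in any library. The other 4 of the lowest 5 lie in the C-type ends. In alpha they were the windows at 37110001 (0.399, 0.699 and 0.631) and 37150001 (0.703, 0.569 and 0.676). In gamma they were the windows at 37800001, which holds the start of Pcdhgc3 (0.613, 0.582 and 0.682), and 37820001 (0.553, 0.616 and 0.865).

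Windows of 1 kb that reached 2 times the median in all 3 libraries numbered 441 of 912 (48.4%), against 2.74% of all autosomal windows. They were 66 of 259 in alpha (25.5%), 175 of 256 in beta (68.4%), 110 of 180 in gamma (61.1%) and 90 of 217 between the clusters (41.5%). They formed 95 unbroken runs, of which 26 were at least 5 kb long. The longest, 62 kb from 37707001 to 37769000, took in 12 gamma starts from Pcdhga6 to Pcdhga12 and had levels of 6.44, 7.20 and 5.70. The next, 48 kb from 37479001 to 37527000, took in Pcdhb17 to Pcdhb22 and had levels of 5.44, 5.74 and 4.23. The third, 26 kb from 37680001 to 37706000, held Pcdhgb1, Pcdhga4, Pcdhgb2 and Pcdhga5. The fourth, 15 kb from the first window of the locus to 36945000, held Pcdha1 and Pcdha2, and the fifth, 14 kb from 37405001 to 37419000, held Pcdhb10. The longest run ranged from 22 kb to 122 kb under other thresholds and joining rules, so its length belongs to the rule.

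Averaged over all their genes, other families known to carry H3K9me3 in clusters were lower. The bodies of 406 zinc finger (Zfp) genes had mean levels of 1.54, 1.65 and 1.47, and 1420 olfactory receptor (Olfr) genes 1.71, 1.87 and 1.42. The locus exceeded the Zfp genes by 1.07, 1.09 and 0.80 on the log2 scale, and the Olfr genes by 0.92, 0.91 and 0.85 (exact sign-flip p = 0.25 each, the smallest possible, 0.25 adjusted over the 7 comparisons). Single members reached the locus. Of the Zfp genes 40, and of the Olfr genes 16, were at or above it in all 3 libraries. These classes hold every autosomal gene of the name, marked or not, so marked Zfp or Olfr clusters were not set against the locus. Only 22.4% of the Zfp and 9.58% of the Olfr genes reached 2 times the median in all 3 libraries. The class values are means over gene bodies, whereas the locus includes the sequence between genes.

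Protocadherin genes outside the clusters were near the genome's typical level. The 10 measured of 12 listed non-clustered protocadherins had mean levels of 0.962, 1.03 and 1.02, and the other two lie on the X chromosome. Pcdh8, an adhesion gene known to respond to neuronal activity, was the only one at 2 times the median in all 3 libraries (2.45, 2.23 and 2.59). Pcdh1 and Pcdh12, which lie on the same chromosome beyond the gamma cluster, had levels of 0.532, 0.856 and 0.841, and 0.980, 1.04 and 0.852.

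No window or gene start of the locus was called different between the enriched cage and the home cage. In limma's test across all autosomal 10 kb windows, 0 of the 91 windows passed an adjusted p of 0.05, against 0.0267% of the 235679 windows tested. At an unadjusted p under 0.05 there were 0 higher windows (4.57% of all windows) and 1 lower (2.62%). The counts were 0 under every alternative fit run for the windows. That 1 window, at 37590001 between beta and gamma, had levels of 2.02, 1.54 and 1.11, a log2 difference of -0.59 (SE 0.30, adjusted p = 0.686 by limma with Benjamini-Hochberg). The SE was larger at the most marked windows, at 1.58 at 37740001 and 1.45 at 37690001, against 0.29 at 37190001, where levels were near 1. Each SE was in effect the value of the fit's trend at that mean level, so a window's own spread hardly entered it. In the separate fit of gene starts, Pcdhgb6, with levels of 9.29, 8.31 and 7.23, had an SE of 0.54. The window fit without trend also called 0 windows of the locus. With the SE of the main fit, only a very large change could have been called at the most marked windows. The lack of calls there therefore says little.

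The home cage had a single library, so cage and library cannot be told apart. The spread of the home cage was assumed to equal that of the enriched libraries. For the whole-locus level the exact permutation of the home cage label gave p = 1, where the smallest possible is 0.33. The enriched libraries stood 0.12 above and 0.33 below the home cage on the log2 scale (0.12 and -0.33).

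Over the 91 windows the median log2 difference, on the log2(level + 0.1) scale, was -0.11, with -0.01 over all windows and a median SE of 0.49. It was -0.32 without enriched 1 and 0.11 without enriched 2, so its direction rests on which enriched library is used. It was 0.02 when libraries were scaled by the 99th percentile. Both enriched libraries were above the home cage in 12 windows (34.2% of all windows) and both below in 25 (34.2% of all), and the home cage lay between them in 54. The largest positive differences were at 37110001 (0.62), 37030001 (0.37) and 37820001 (0.35), and the largest negative ones at 37560001 (-0.60), 37590001 (-0.59) and 37620001 (-0.55). The 3 negative ones all lie between the beta and gamma clusters.

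The gene starts gave the same picture. In limma's test 0 of the 58 starts passed, against 0.386% of 30572 starts, and at an unadjusted p under 0.05 there were 0 higher (7.47% of all) and 0 lower (2.41% of all). No alternative fit of the starts gave a call. The smallest adjusted p was 0.604, at Pcdha7. Both enriched libraries were above the home cage at 12 starts (40.6% of all) and below it at 10 (29.6% of all). The median log2 difference was -0.01, with 0.07 over all starts. It was -0.27 without enriched 1 and 0.23 without enriched 2.

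Pcdha7 had the largest positive difference, with levels of 2.39, 4.69 and 3.47 on 17, 67 and 32 fragments (log2 difference 0.73, SE 0.44). Pcdhga6 had levels of 5.11, 9.23 and 7.53 (0.70), and Pcdhb1 of 2.95, 5.13 and 4.53 (0.69). At these 3 starts both enriched libraries lay above the home cage, which follows largely from picking them by this difference. The largest negative differences were at Pcdhga4, with levels of 8.31, 7.43 and 4.85 (-0.46), Pcdha9, at 4.27, 3.71 and 2.59 (-0.45), and Pcdhgb1, at 6.69, 6.54 and 4.13 (-0.36). There enriched 2 set most of the difference, being the lowest library at each.

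The libraries ranked the windows and genes alike. Across the 912 windows, Pearson correlations between pairs of libraries were taken on log2(level + 0.1). They were 0.855 (home cage and enriched 1), 0.824 (home cage and enriched 2) and 0.855 (the enriched pair). The 33 windows at 0 in all 3 libraries were included and can raise these values. Across the 53 gene starts that are not C-type, Spearman correlations were 0.863, 0.776 and 0.842 for the same pairs. These are descriptions, since neighbouring windows share fragments and all windows share how well reads can be placed on them. The enriched pair did not stand apart from the pair of home cage and enriched 1 by either measure.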

How the data were processed

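Each of the 3 ChIP samples has a coverage signal along the genome, deposited by the authors as a track with 1 value per interval. Every value is a whole multiple of 1 step (0.16093, 0.07655 and 0.12369 in the home cage, enriched 1 and enriched 2), within 0.01 steps plus 0.0001 of the multiple for the rounding of the step, which gave the fragment counts. Isolated runs of 1 step were 285, 207 and 238 bases long in 99.9%, 99.8% and 99.9% of cases. This near-constant length was taken as the fragment length of each library and need not be a measured one. The submitters' processing notes list the build mm10, the aligners BWA 0.7.12 and TopHat2, the peak caller MACS2, and CASAVA 1.7, without saying which made these tracks; duplicate handling is not given in the sources used here.

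Signal was averaged over 1 kb and 10 kb windows and over the first 3 kb of genes, and divided by the library's median over autosomal 10 kb windows. The lower coordinate was taken as the start of each clustered protocadherin gene. Other genes of chromosome 18 were not used in the gene-start fit. Enriched and home cage were compared with limma 3.58.1 (R 4.3.3, trend) on log2(level + 0.1), for windows or starts with a mean of at least 0.25, with Benjamini-Hochberg adjustment over all of them and a threshold of 0.05. The fit left 1 residual degree of freedom, and its moderation pooled the variance across all windows. Alternatives were other pseudocounts, minimums, scalings, window sizes and thresholds, and leaving out each library.

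The members and gene lists were chosen with earlier results of these data known. Genes named were the 3 highest and 3 lowest starts of each cluster, all C-type genes, the 5 highest and lowest windows, the 5 longest runs and the 3 largest differences in each direction. Pcdhgb1, Pcdhgb8, Pcdhb10 and the gap windows were named after their values were seen. The RNA splicing tables were not analysed here.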

Additional observations from a re-analysis of the deposited data

How the results depend on the processing

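Of 128 alternative values of 16 results, 115 stayed within the replicate spread, within 1.5 times the count or on the same side of the threshold, and 13 moved. No result passed a test, so no call could be reversed. The within-library differences could not be labelled as moved, since their sign-flip test cannot pass with so few libraries. Scalings also cancel within a library. For the enriched minus home medians, the spread was the SD of the values with each enriched library left out. Those values therefore lie within it even where their sign changes. The count that stayed is thus not a measure of stability for these results. Dividing by the 99th percentile, which changes the unit, gave 1.14 for the locus, 0.714 for alpha, 1.34 for beta and 1.57 for gamma. The alpha level was 1.51 as a median over 1 kb windows and 2.22 without windows at 0. A threshold of 3 left 281 windows of 1 kb in runs and a longest run of 22 kb, and a threshold of 1.5 gave a longest run of 103 kb. Joining runs over 1 window gave 51 runs and a longest run of 122 kb, and the mean of the 3 libraries gave 60 runs and a longest run of 110 kb. These follow from the rules themselves.

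Leaving out 1 library gave levels of 2.89 to 3.37 for the locus, 1.82 to 2.07 for alpha, 3.37 to 4.06 for beta and 4.06 to 4.49 for gamma. The within-library log2 differences were then 0.88 to 0.97 (beta minus alpha), 1.12 to 1.16 (gamma minus alpha), 0.15 to 0.28 (gamma minus beta), 0.93 to 1.08 (locus minus Zfp genes) and 0.88 to 0.91 (locus minus Olfr genes). The median enriched minus home difference ranged from -0.32 to 0.11 over windows and from -0.27 to 0.23 over gene starts, with a change of sign in both. Scaling by the 99th percentile also changed the sign of both medians (0.02 and 0.12), as did, over gene starts, scaling by the mean (0.01) and 1 kb centred on the start (0.12). Leaving out an enriched library leaves 1 against 1, which gives a value and no test. No paired analysis was possible because the home cage has 1 library, so the groups share fewer than 2 replicate numbers. Scaling within GC deciles and the RNA alternatives were not run. At the C-type starts, 3 to 20 fragments per library limit the precision.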
